A study of Mus musculus with 240 samples.

Results

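The nuclear-encoded genes of oxidative phosphorylation (OXPHOS) were examined across the 8 founder strains of the Collaborative Cross and 3 brain regions. Members were chosen by name: genes whose symbols began with Nduf, Uqcr, Cox4 to Cox8 or Atp5, or were Sdha, Sdhb, Sdhc or Sdhd, without names that end in -ps, which mark pseudogenes. Members numbered 90, which is 0.609% of the genes with deposited log2 values. The count table held 114 such names among its 55414 genes. Those left out were 4 -ps names with log2 values, 10 -ps names without, and 10 other names without log2 values, among them the isoforms Cox7a1, Cox7b2, Cox8b and Cox8c.

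RNA-seq was carried out on 3 regions of naïve adult mice, punched by hand from frozen coronal slices: the amygdala's central nucleus (CeA), the accumbens (NAcc) and prelimbic cortex (PrL). Each of the 8 inbred strains, B6, AJ, S129 (129), NOD, NZO, CAST, PWK and WSB, gave 3 females and 3 males, and all 3 regions came from the same 48 mice. The strains carried no transgene and received no treatment, and CAST, PWK and WSB are wild-derived. The study set B6 and PWK, the strains of high ethanol preference, each against Low_Average, the mean of the other 6 strains, and 1 NAcc library of a female B6 mouse was left out, so that B6 NAcc had n = 5 and every other group n = 6.

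OXPHOS is carried out in the inner mitochondrial membrane. Electrons from NADH enter at complex I and those from succinate at complex II, pass through complex III to complex IV, where oxygen is reduced, and the proton gradient that results drives complex V, the ATP synthase. Complexes I, III, IV and V combine nuclear-encoded subunits with subunits made inside the mitochondrion, whereas all complex II subunits are nuclear-encoded. Neurons draw most of their ATP from this pathway. The 90 members were 7 core subunits of complex I, 32 accessory subunits (counting Ndufa4 and Ndufa4l2, which carry complex I names), 8 assembly factors of complex I (the Ndufaf genes), 4 subunits of complex II, 8 of complex III, 14 of complex IV and 17 of complex V.

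Many of these short mRNAs have near-identical copies in the mouse genome, and the sequences of the copies are shown first because the strain differences of several members changed when the counts of their copies were added. By alignment to GENCODE M21 transcripts, 36 of the 89 members with an annotated coding sequence had 1 or more copies in the count table, with at least 90% identity over at least 50% of the coding sequence. For 5 genes the copy with most of the counts was a processed pseudogene of 1 exon, an mRNA copied back into the genome without introns. Positions are on GRCm38, whereas the counts were made on GRCm39. Ndufs5, an accessory subunit of complex I, lies at chr4:123712710-123718202 on the minus strand, and its copy Ndufs5-ps lies at chr16:42955631-42955949 on the plus strand. Over all 318 coding bases they differ by T81C and A105G, counted from 1 at the first base of the start codon, with the gene's base first. Bases 41 to 145 are shown with both differences in capitals.
Ndufs5: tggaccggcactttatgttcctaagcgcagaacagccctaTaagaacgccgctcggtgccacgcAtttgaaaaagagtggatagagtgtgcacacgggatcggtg
Ndufs5-ps: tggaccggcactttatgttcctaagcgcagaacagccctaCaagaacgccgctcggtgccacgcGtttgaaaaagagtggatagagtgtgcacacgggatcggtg

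Cox7a2l, a complex IV family member that takes part in respiratory supercomplexes, lies at chr17:83501918-83517330 on the minus strand. Its copy Gm6969 lies at chr12:24638669-24639010 on the minus strand and holds the first 201 of 402 coding bases with 0 differences. Atp5md, a small membrane subunit of the ATP synthase, lies at chr19:47083464-47090647 on the minus strand, and its copy Gm14539 at chrX:20581141-20581314 on the minus strand holds all 174 coding bases with 0 differences. The shared stretches, the same in gene and copy, are shown in lower case.
Cox7a2l and Gm6969: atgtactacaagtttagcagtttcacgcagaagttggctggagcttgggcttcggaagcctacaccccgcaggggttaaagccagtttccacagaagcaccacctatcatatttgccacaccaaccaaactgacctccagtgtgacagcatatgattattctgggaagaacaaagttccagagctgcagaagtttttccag
Atp5md and Gm14539: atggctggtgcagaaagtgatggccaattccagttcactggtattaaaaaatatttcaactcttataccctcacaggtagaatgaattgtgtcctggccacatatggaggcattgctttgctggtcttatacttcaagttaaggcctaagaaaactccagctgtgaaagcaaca

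Atp5g1 is 1 of 3 genes for the c subunit of the rotating ring of the ATP synthase, and lies at chr11:96068852-96075670 on the minus strand. Its copy Gm10039, at chr11:100361716-100362126 on the minus strand, differs over all 408 coding bases by G385A only. Bases 345 to 408 are shown with the difference in capitals. For Ndufa12, an accessory subunit of complex I at chr10:94198720-94221443 on the plus strand, the copy Ndufa12-ps at chr5:130188395-130188796 on the plus strand holds bases 49 to 447 of 447, with A147G and T426C.
Atp5g1: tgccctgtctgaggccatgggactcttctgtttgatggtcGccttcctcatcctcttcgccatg
Gm10039: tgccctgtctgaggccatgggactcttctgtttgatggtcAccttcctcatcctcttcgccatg

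Of all 100-base windows of the coding sequence, the length of 1 read, the share found in the copy without a mismatch was 52.1% for Ndufs5, 51.4% for Ndufa12, 33.7% for Cox7a2l, 100% for Atp5md and 92.2% for Atp5g1. With up to 3 mismatches, the number allowed in the authors' alignment, the shares were 100%, 86.2%, 41.9%, 100% and 100%. A single read from a window without a mismatch holds no reference base by which gene and copy can be told apart. In the other windows counted, the reference differs between gene and copy at up to 3 bases. The libraries were read from both ends, and whether the mate or bases outside the coding sequence separate gene and copy was not examined. The study's counts were made with STAR, and how reads that align to both were counted is not given in the sources used here. Whether the sums of gene and copy hold all such reads is therefore not known.

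The 48 CeA, 47 NAcc and 48 PrL libraries had total counts from 14942820 to 33951616 (median 24456928). Of the counts on genes with log2 values, the members took a median of 1.11% (0.93% to 1.37%). The median level of the members was 6.29, 6.30 and 6.36 log2 CPM (counts scaled to library size) in the CeA, NAcc and PrL, against 4.66, 4.67 and 4.64 for all genes. Some libraries stood apart in markers of neighbouring tissue. By limits set after the values were seen, these were 14 of 48 CeA libraries (10 with high choroid plexus markers and 5 with low markers of pallial glutamatergic neurons), 6 of 47 NAcc libraries with high pallial markers (3 of them among the 5 of B6), and 4 of 48 PrL libraries with high striatal markers (2 of the 6 of B6). In the CeA they included 3 of the 6 libraries each of S129 and NOD and 2 of the 6 each of B6, AJ and PWK. The main counts below are given with and without these 24 libraries. Fits without them rest on fewer mice, so for a call lost there the effect of fewer mice and that of tissue cannot be told apart. In such bulk tissue, fewer cells of a type and less RNA per cell cannot be told apart.

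The members differed among strains in small steps. In the limma-voom fits of each region (strain, sex and tray, the sequencing batch), with 28 strain pairs adjusted together by the Benjamini-Hochberg method and a threshold of 0.05, 82 of 90 members were differentially expressed (DE) in 1 or more pairs in the CeA (91.1% of all genes), 68 in the NAcc (88.4%) and 81 in the PrL (92.6%). Without the 24 libraries the counts were 76, 66 and 84, in fits where the share of all genes was not computed. A strain pair had a median of 20.5 DE members in the CeA (3 to 49), 15 in the NAcc (4 to 26) and 22 in the PrL (8 to 42). On average 23.7%, 17.3% and 25.0% of members were DE in a pair, against 28.8%, 26.1% and 33.0% of all genes, and the share of members was below that of all genes in 22, 28 and 25 of the 28 pairs. Pairs that share a strain share its libraries. CAST had the most DE members per pair in the PrL (mean 35.7, 39.7% of members against 43% of all genes) and PWK in the CeA (mean 29.7, 33% against 33.9%). S129 had the fewest in every region (14.1, 11.3 and 16.3, or 15.7%, 12.5% and 18.1% of members). Its shares of all genes, 22.7%, 19.5% and 27.9%, were also among the lowest, with NZO lower in the CeA (22.5%) and NOD in the PrL (27.6%).

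The size of the differences was small beside that of the genome. The range over the 8 fitted strain means had a median of 0.33, 0.28 and 0.30 log2 units for the members (CeA, NAcc and PrL), against 0.55, 0.56 and 0.48 for all genes. A range over 1 was found for 4 of 90 members (4.44%) in each region, against 25.5%, 25.6% and 22.2% of all genes. The core subunits of complex I, which carry the flavin and the iron-sulphur clusters, had median ranges of 0.22, 0.23 and 0.19, those of complex III 0.27, 0.20 and 0.25, and those of complex IV 0.43, 0.38 and 0.37. Ranges were 0.37, 0.30 and 0.30 for accessory subunits, 0.33, 0.31 and 0.34 for assembly factors, 0.26, 0.27 and 0.32 for complex II and 0.32, 0.25 and 0.25 for complex V. Members are expressed at a higher level than most genes, and the part of level in these medians was not tested. The genes with a range over 1 in a region were Ndufs5, Cox7a2l, Cox6a2, Cox4i2 and Cox6b2, of which Cox6b2 in the CeA (range 1.26) was DE in 0 pairs.

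**Figure D1:**
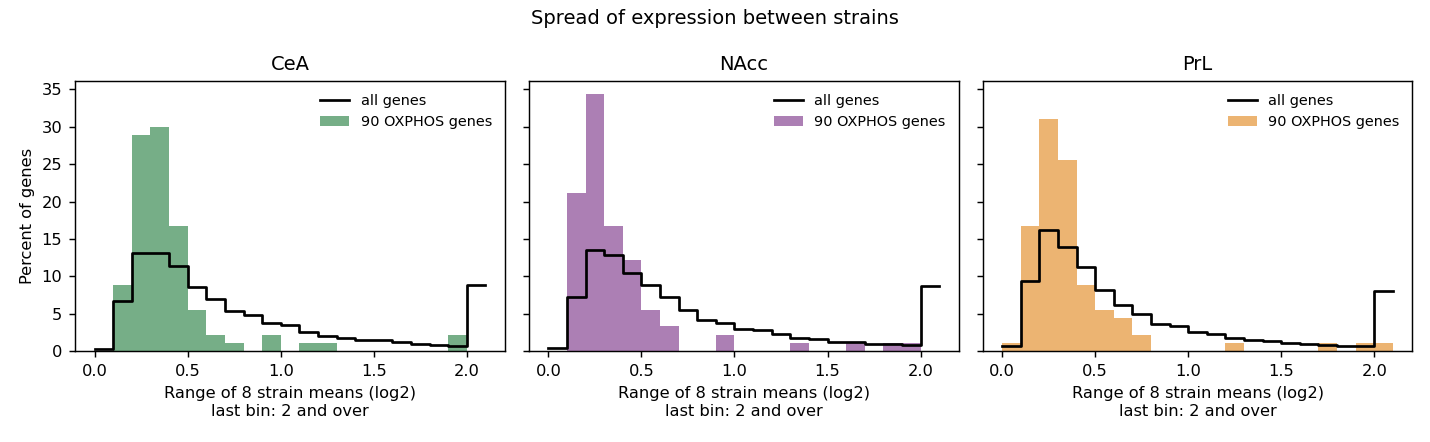
Distribution of the range over the 8 fitted strain means (x axis, log2 units in steps of 0.1, with the last step holding 2 and over) for the 90 OXPHOS members (bars) and all genes with log2 values (line), as percent of genes, by region. The bars gather below the line's tail: the members' medians were 0.33, 0.28 and 0.30 in the CeA, NAcc and PrL against 0.55, 0.56 and 0.48 for all genes.

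For Ndufs5, the 8 strains fell into 2 sets that did not overlap. In the CeA the log2 CPM was 5.06, 5.49 and 5.63 (lowest, median and highest of 6 mice) in B6, 5.18, 5.55 and 5.60 in AJ, 5.05, 5.51 and 5.57 in NZO, and 5.18, 5.42 and 5.59 in WSB. It was 3.53, 3.69 and 4.10 in S129, 3.45, 3.85 and 4.01 in NOD, 2.80, 3.62 and 3.93 in CAST, and 3.39, 3.75 and 4.00 in PWK. Every mouse of the first 4 strains was above every mouse of the other 4, and within each set the strains overlapped. The largest pair difference of Ndufs5 was 1.95 (AJ against CAST, limma-voom adjusted p = 2.19e-18) in the CeA, 1.88 (NZO against CAST, adjusted p = 4.81e-21) in the NAcc and 1.91 (WSB against PWK, adjusted p = 1.07e-20) in the PrL.

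The copy Ndufs5-ps was counted in the strains in which Ndufs5 was low. In the CeA, Ndufs5 had a mean of 43.9 ± 6.42 CPM (SD, n = 6) in B6, 45.2 ± 4.75 in AJ, 42.4 ± 6.22 in NZO and 42.4 ± 4.66 in WSB, and its copy was at 0.962, 0.826, 0.934 and 0.915 CPM. In S129, NOD, CAST and PWK the gene was at 13.7 ± 2.2, 13.9 ± 1.88, 11.8 ± 2.83 and 13.1 ± 2.07 CPM, and the copy at 33.8 ± 3.7, 30.2 ± 1.97, 24.4 ± 1.2 and 39.3 ± 2.45 CPM. The sums lay closer together: 44.9, 46.0, 43.3 and 43.3 CPM in the first set and 47.5, 44.2, 36.2 and 52.4 CPM in the second. With the counts of copies added to their genes and all genes fitted again, the range of Ndufs5 went from 1.95 to 0.53 in the CeA, from 1.88 to 0.53 in the NAcc and from 1.91 to 0.46 in the PrL. CAST was then down-expressed against all 7 other strains in each region.

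Cox7a2l had a unique pattern in B6 and in CAST, where a unique DEG is a gene DE in the same direction against all 7 other strains. In the CeA its log2 CPM was 7.00, 7.19 and 7.21 in B6, 6.64, 6.79 and 6.89 in AJ, 6.41, 6.54 and 6.62 in S129, 6.47, 6.58 and 6.72 in NOD, 6.57, 6.64 and 6.73 in NZO, 6.36, 6.45 and 6.63 in WSB, 5.71, 5.90 and 6.06 in PWK and 4.81, 5.25 and 5.35 in CAST. All 6 B6 mice were above all mice of the other strains, and all 6 CAST mice were below them. Against the other strains, Cox7a2l was up-expressed in B6 by a mean of 0.84, 0.84 and 0.73 log2 units in the CeA, NAcc and PrL (largest adjusted p over the 7 contrasts 4.33e-05, 4.43e-09 and 9.73e-09), and down-expressed in CAST by a mean of -1.38, -1.44 and -1.30 (8.64e-11, 3.68e-15 and 9.29e-16).

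For Cox7a2l, the copy Gm6969 was at 0.256 ± 0.213 CPM in the CeA of B6, and at 35.9 to 57.6 CPM in the other 7 strains. In B6 the gene was at 141 ± 8.95 CPM, in AJ at 110 ± 6.64 with 43.4 CPM in the copy, in PWK at 59.1 ± 5.94 with 38.0, and in CAST at 36.9 ± 4.85 with 57.6. The sums were 142 CPM in B6, 154 in AJ, 129 in S129, 134 in NOD, 141 in NZO, 126 in WSB, 97.1 in PWK and 94.5 in CAST, so that B6 no longer stood above the rest while CAST and PWK remained lowest. In the fit on summed counts the range of Cox7a2l fell from 1.94 to 0.70 in the CeA, from 2.00 to 0.75 in the NAcc and from 1.77 to 0.58 in the PrL. The B6 call was lost in every region, and CAST remained a unique DEG in the NAcc only.

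Atp5md was a unique DEG of CAST, down-expressed by a mean of -0.80 in the CeA (largest adjusted p = 6.32e-05) and -0.69 in the NAcc (0.0126). Its log2 CPM in the CeA was 5.81, 5.93 and 6.09 in CAST, 6.15, 6.46 and 6.82 in PWK and 6.41, 7.05 and 7.18 in B6, and no CAST mouse overlapped the others. The copies of Atp5md, mainly Gm14539 of the X chromosome, were at 62.4 ± 2.81 CPM in CAST and 33.9 ± 7.25 CPM in PWK, and at 0.501 to 0.606 CPM in the other 6 strains. The sum was 124 ± 6.69 CPM in CAST, 123 ± 21.5 in PWK and 123 ± 23.9 in B6. On summed counts the range of Atp5md fell from 0.98 to 0.30 in the CeA and from 0.97 to 0.30 in the NAcc, and in the PrL, where it went from 0.67 to 0.50, CAST became the highest strain and an up-expressed unique DEG.

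Ndufa12 was a unique DEG of B6 in all 3 regions, up-expressed by a mean of 0.53, 0.44 and 0.50 in the CeA, NAcc and PrL (largest adjusted p 2.66e-06, 0.0279 and 1.43e-07). In the PrL its log2 CPM was 5.85, 6.02 and 6.28 in B6, against 5.30 to 5.74 over all mice of the other strains, with no overlap. In the CeA, Ndufa12 was at 68.9 ± 6.53 CPM in B6 with 0.209 CPM in Ndufa12-ps, and at 48.4 ± 5.68 with 28.4 in AJ, 50.1 ± 3.41 with 29.0 in NOD, 47.2 ± 1.58 with 20.5 in WSB, 44.0 ± 5.65 with 13.3 in CAST and 48.3 ± 3.78 with 10.9 in PWK. The sums placed B6 (69.1 CPM) below AJ (76.8) and NOD (79.1) and above CAST (57.4) and PWK (59.2). On summed counts the B6 call was lost in every region, with a mean difference of 0, -0.08 and -0.02. In the NAcc the call of Ndufa12 was also lost without B6 mouse 25, 33 or 41 (largest adjusted p 0.0886, 0.0568 and 0.068), without the tray term (0.0854), and without the libraries that stood apart (mean 0.28, 0.606).

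Atp5g1 was a unique DEG of NOD, down-expressed by a mean of -0.40, -0.30 and -0.39 in the CeA, NAcc and PrL (largest adjusted p 0.000825, 0.0214 and 0.00753). In the PrL its log2 CPM was 6.75, 6.88 and 7.05 in NOD and 7.00 to 7.60 over the other strains, so that the groups met at the edge. The copies of Atp5g1, mainly Gm10039, were at 35.2 ± 4.11 CPM in the CeA of NOD and at 0.652 to 3.69 CPM elsewhere. The sum was 155 ± 14.2 CPM in NOD and 161 ± 6.17 in B6. On summed counts the range of Atp5g1 fell from 0.49 to 0.18, from 0.52 to 0.29 and from 0.51 to 0.28, and the call was lost in each region. In the NAcc, Atp5g1 did not pass without the libraries that stood apart (mean -0.28, 0.209).

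**Figure D2:**
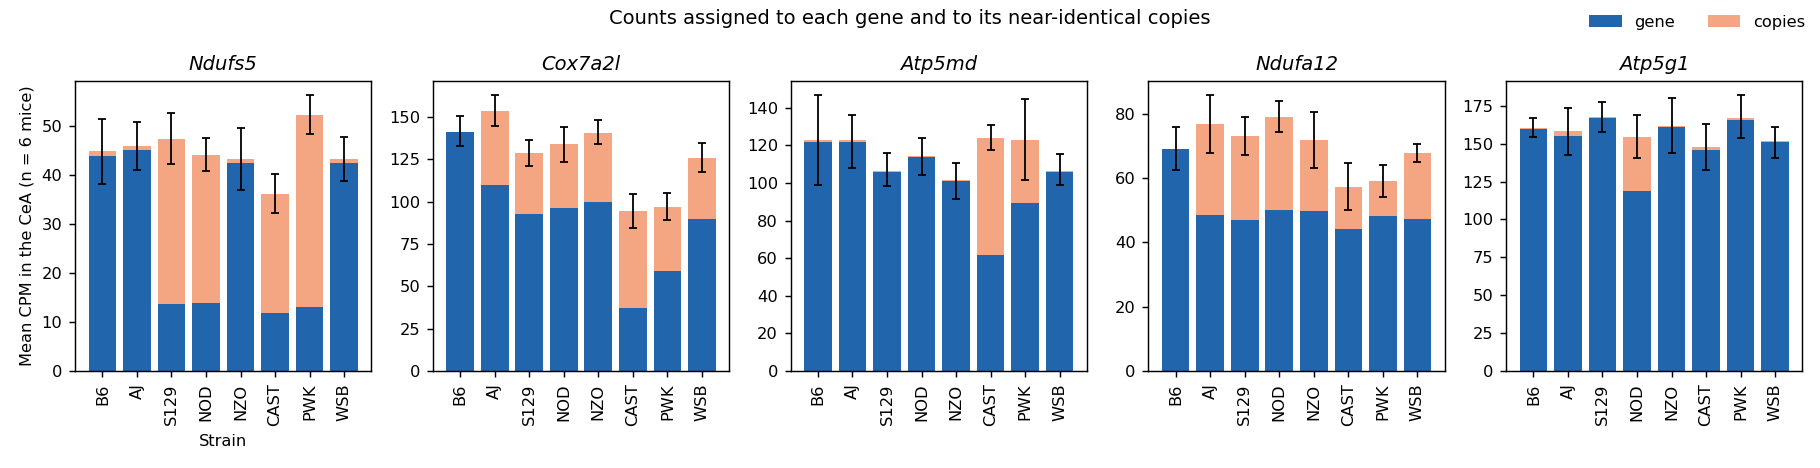
Mean CPM in the CeA of 5 genes (blue) and of their copies (orange, stacked above) by strain, with the SD of the sum as error bar and n = 6 mice a strain. Blue bars differ between strains where orange bars are present: Ndufs5 stood at 43.9 CPM in B6 and 13.1 in PWK, with 0.962 and 39.3 CPM in the copy.

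In 6 members the copies took more than 10% of the summed counts in some group: up to 75.0% for Ndufs5, 60.9% for Cox7a2l, 50.3% for Atp5md, 38.6% for Ndufa12, 24.2% for Atp5g1 and 11.4% for Atp5o. The copies of every other member took less than that. Atp5o, a stalk subunit of the ATP synthase, moved the other way, with a range of 0.37 before and 0.47 after summing in the CeA. Over all members, summing left the median range at 0.33, 0.28 and 0.29. The reference genome is that of B6, and in the CeA of B6 the copies of Ndufs5, Cox7a2l, Atp5md, Ndufa12 and Atp5g1 were all below 1 CPM. For some genes this was shared with other strains. The copy of Ndufs5 was also below 1 CPM in AJ, NZO and WSB (0.826, 0.934 and 0.915), and those of Atp5md in every strain but CAST and PWK. Whether the copies are present, transcribed or mutated in a strain was not tested.

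Unique DEGs among the members, those above included, numbered 11 of 90 in the CeA (19.2% of all genes were a unique DEG of some strain), 10 in the NAcc (17.7%) and 16 in the PrL (26.9%), with Cox7a2l, Ndufa12, Atp5g1, Ndufaf6 and Atp5h in all 3 regions. CAST gave 2, 2 and 5 higher and 3 in each region lower (3%, 3.04% and 5.2% of all genes higher, 3.24%, 3.25% and 4.76% lower). B6 gave 3, 5 and 4 higher and 0 lower (1.95%, 0.987% and 1.22% higher, 1.37%, 0.967% and 1.63% lower), and PWK 2, 0 and 2 higher and 0, 0 and 1 lower (2.52%, 2.87% and 4.24% higher, 3.08%, 3.46% and 4.78% lower). On summed counts the numbers were 7, 9 and 14, and without the 24 libraries that stood apart 9, 6 and 15. The share of all genes that were unique DEGs was not computed in these fits. Ndufaf6, an assembly factor of complex I, was up-expressed in CAST by a mean of 0.70, 0.52 and 0.57 (largest adjusted p 0.000132, 0.000561 and 2.07e-05). In the PrL its log2 CPM was 2.99, 3.08 and 3.32 in CAST and 2.15, 2.54 and 2.92 over the other strains, and 6 of 6 CAST mice were above all others. Atp5h, the d subunit of the peripheral stalk, was down-expressed in CAST by a mean of -0.39, -0.42 and -0.30 (0.000123, 5.3e-07 and 0.000137). In the CeA, Atp5h was at 6.76, 7.01 and 7.17 in CAST and at 7.13 to 7.64 elsewhere, with 4 of 6 CAST mice below all others. Its copies took at most 7.96% of its sum, and on summed counts the call held in the CeA and NAcc and was lost in the PrL.

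Uqcrc1, a core protein of complex III, was up-expressed in CAST in the CeA (mean 0.35, largest adjusted p = 0.000108) and PrL (0.39, 4.61e-09). In the PrL, Uqcrc1 was at 8.34, 8.46 and 8.53 in CAST against 7.90, 8.05 and 8.27 elsewhere, and 6 of 6 CAST mice were above all others. No copy of Uqcrc1 was found in the count table. The other core protein, Uqcrc2, rose in CAST in the PrL alone (0.18, 0.00457), as did Sdhb, the iron-sulphur subunit of complex II (0.18, 0.0488), whereas Ndufv1, the flavin subunit of complex I, fell there (-0.21, 0.000667). Ndufb6, a membrane accessory subunit, was up-expressed in CAST in the NAcc (0.39, 0.00938) and PrL (0.48, 1.04e-05). PWK was up-expressed for Ndufa5, in the arm of complex I that faces the matrix, in the CeA (0.40, 0.0191) and PrL (0.43, 0.000156), for Ndufa6 in the CeA (0.33, 0.0167) and for Atp5a1, the catalytic-head alpha subunit, in the PrL (0.17, 0.0189), and down-expressed for Ndufb4 in the PrL (-0.33, 0.02).

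In the PrL, Ndufa5 was at 5.96, 6.20 and 6.38 in PWK and at 5.38 to 6.09 elsewhere, with 4 of 6 PWK mice above all others. The remaining unique DEGs were Ndufs3 (AJ up in the CeA, 0.32, 0.0465), Atp5g1 (NZO up in the NAcc, 0.30, 0.035), Cox5a (NOD up in the PrL, 0.33, 0.0188), Sdhb (WSB down in the PrL, -0.21, 0.00241) and, in B6, Ndufb2 in the CeA and PrL (0.33 in both, 0.0399 and 0.0394), Ndufaf7 in the PrL (0.27, 0.00936), and Cox4i2, Cox6a2 and Ndufaf1 in the NAcc (1.09, 0.99 and 0.30, with 0.0201, 0.0318 and 0.0417). S129 had no unique DEG among the members. Unique DEGs of 1 or 2 regions are named here after their values were seen. On summed counts the calls of Ndufs3 in AJ and Atp5g1 in NZO were lost. Without the libraries that stood apart both were lost too, as were those of Ndufa5 and Ndufa6 in PWK in the CeA, Ndufb2 in B6 in the CeA and PrL, Cox4i2 and Ndufaf1 in B6 in the NAcc, and Atp5a1 and Ndufb4 in PWK and Sdhb in CAST in the PrL.

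The isoform genes of complex IV differed widely in level. Per kilobase of exon, Cox8a led all members in the PrL with a mean of 482 CPM per kb, against 401 in the CeA and 370 in the NAcc. Cox4i1, the ubiquitous form of subunit 4, was at 262, 269 and 294 CPM per kb in the CeA, NAcc and PrL, and its paralog Cox4i2, known from lung and pericytes, at 1.21, 1.71 and 1.41. Cox6a1, the liver form, was at 312, 314 and 338, and Cox6a2, the heart and muscle form that is also found in some interneurons, at 4.38, 3.86 and 3.29. Cox6b1 was at 245, 240 and 260 and the testis form Cox6b2 at 1.76, 1.69 and 1.17. Each ubiquitous form was thus far above its paralog in every region. Ndufa4, a complex IV subunit despite its name, was at 139, 135 and 151 CPM per kb and its paralog Ndufa4l2 at 1.81, 2.01 and 1.91, and Cox7a2 was at 137, 128 and 150 beside 61.5, 66.4 and 60.6 for Cox7a2l without its copy. Of the c subunit genes, Atp5g3 was at 103, 105 and 101, Atp5g1 at 31.2, 29.7 and 30.5 and Atp5g2 at 27.3, 29.7 and 27.4. Assembly factors of complex I, which act while it is built, had medians of 10.1 to 10.3 CPM per kb, against 40.0 to 43.2 for its accessory subunits.

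The low isoforms varied between strains beyond the ubiquitous ones. In the PrL the log2 CPM of Cox6a2 was 1.73, 1.91 and 2.65 in B6, 1.01, 1.72 and 1.90 in WSB, 1.09, 1.29 and 1.75 in NZO, 0.80, 1.21 and 1.52 in AJ and 0.60, 0.89 and 1.67 in S129. It was -0.65, 0.38 and 1.86 in PWK, -0.61, 0.36 and 0.85 in CAST and -0.30, -0.07 and 0.51 in NOD. B6 and NOD did not overlap and differed by 2.00 (adjusted p = 3.7e-08), which is 72 to 119 reads a library in B6 and 15 to 27 in NOD. In order of medians, every strain overlapped its neighbour. Cox6a2 had the widest range of any member in the PrL. For Cox4i2, the 5 B6 mice in the NAcc were at 1.09, 1.23, 1.02, 1.51 and 1.56 (42 to 54 reads), and mice of the other strains were between -1.39 and 1.40, so that 2 of 5 B6 mice were above all others.

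Against Low_Average, B6 was up-expressed for 22 members and down-expressed for 4 in the CeA (22.3% and 18.7% of all genes), 15 and 4 in the NAcc (17.2% and 14.9%) and 22 and 7 in the PrL (18% and 19.3%). The counts of higher members were near those shares (24.4%, 16.7% and 24.4% of members), and the counts of lower members were below them (4.44%, 4.44% and 7.78%). The median change of the members was 0.04, 0.05 and 0.02, against 0.01, 0.01 and 0.00 for all genes. Complex IV gave 5 of 14 higher and 0 lower in each region, accessory subunits 7, 6 and 9 of 32 higher and 1, 1 and 2 lower, assembly factors 4, 2 and 2 of 8 higher and 0, 1 and 1 lower, complex V 3, 1 and 3 of 17 higher and 2, 0 and 2 lower, complex III 2, 0 and 1 of 8 higher and 1 lower in each region, core subunits 1 of 7 higher in each region and 0 lower, and complex II 0, 0 and 1 of 4 higher and 0, 1 and 1 lower. The 4 lower members of the NAcc became 2, 1 and 2 without B6 mouse 9, 17 or 33 (11.8%, 10.3% and 10.8% of all genes).

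The largest rises in B6 that passed were those of genes with copies and of low isoforms. In the CeA, NAcc and PrL, Ndufs5 was up-expressed by 0.88 ± 0.0709 (SE), 0.73 ± 0.0617 and 0.88 ± 0.0598 (limma-voom adjusted p 1.52e-13, 8.86e-13 and 3.68e-16), Cox7a2l by 0.77, 0.77 and 0.67 (2.76e-16, 2.93e-19 and 7.66e-20) and Ndufa12 by 0.53, 0.43 and 0.50. On summed counts 17, 13 and 18 members were higher in B6 (21.6%, 17.4% and 18.7% of all genes). Ndufs5 then differed by 0.04, -0.07 and 0.10 (adjusted p 0.655, 0.364 and 0.196) and Ndufa12 by -0.04, -0.12 and -0.06 (0.618, 0.194 and 0.262). Cox7a2l stayed higher in the CeA (0.14, 0.0185) and NAcc (0.16, 0.000581) but not in the PrL (0.07, 0.131). Cox4i2 was up-expressed by 0.71 ± 0.213, 1.09 ± 0.196 and 0.36 ± 0.141 (0.00753, 2.31e-05 and 0.0372), and Cox6a2 by 0.41 ± 0.138, 0.89 ± 0.162 and 1.15 ± 0.157 (0.0149, 3.07e-05 and 7.24e-08).

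Members higher in B6 in all 3 regions numbered 12 (6.01% of all genes): Ndufs5, Cox7a2l, Ndufa12 and Atp5md, the isoforms Cox4i2 and Cox6a2, the complex IV subunits Cox5b and Cox6c, the assembly factors Ndufaf1 and Ndufaf7, and the membrane-arm subunits Ndufb1 and Ndufb10. Cox5b rose by 0.24, 0.31 and 0.34 and Cox6c by 0.31, 0.33 and 0.25 in the CeA, NAcc and PrL. Ndufaf1 rose by 0.30, 0.32 and 0.23, and Ndufaf7, a methyltransferase that modifies a core subunit, by 0.22, 0.24 and 0.29. Uqcrc2 was the only member lower in B6 in all 3 regions (4.8% of all genes), by -0.11 in each (adjusted p 0.00837, 0.0469 and 0.00322). On summed counts 8 members were higher in all 3 regions (6.03% of all genes), without Ndufs5, Cox7a2l, Ndufa12 and Atp5md. Without the libraries that stood apart 4 were higher (3.77% of all genes), Cox6a2, Cox7a2l, Ndufaf1 and Ndufs5, and Uqcrc2 was no longer lower in all 3. The largest falls of B6 were those of Atp5d, the delta subunit of the central stalk, in the CeA (-0.20, 0.0038), Ndufaf6 in the NAcc (-0.25, 0.0262) and Ndufb8 in the PrL (-0.18, 0.0331). Without B6 mouse 17, 25 or 33 the fall of Ndufaf6 did not pass (adjusted p 0.0517, 0.0567 and 0.165), nor did it without the libraries that stood apart (-0.19, 0.274).

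In the NAcc and PrL fewer members were higher in B6 without the libraries that stood apart, and in the CeA more. The counts became 41 higher and 1 lower in the CeA (20.0% and 16.3% of all genes), 6 and 3 in the NAcc (9.36% and 8.12%) and 12 and 9 in the PrL (16.4% and 14.5%), and the members' median change became 0.13, -0.05 and -0.03. These fits left out 3 of the 5 B6 libraries of the NAcc, and 2 of the 6 in the CeA and in the PrL. In the CeA of B6, all 5 oligodendrocyte markers tested were up-expressed against Low_Average (median 1.46), and the summed level of the list was 6410 to 20300 CPM in B6 mice. All 5 endothelial markers were also up (median 0.45), 1 of 4 choroid plexus markers was up (median 1.16), and 1 of 4 pallial markers was down (median -1.26). In the NAcc of B6, 2 of 4 pallial markers were up (median 1.87), 4 of 5 endothelial markers (median 0.22) and 3 of 8 pericyte markers (median 0.13). The part of these cell types in the members' values was not tested.

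PWK, against the same Low_Average mice as B6, was up-expressed for 35 members and down-expressed for 3 in the CeA, where 20.1% and 19.1% of all genes were. In the NAcc the counts were 11 and 9 (20% and 18.8%) and in the PrL 18 and 9 (23.9% and 23.2%). Without the libraries that stood apart they were 9 and 10 in the NAcc (18.3% and 16.6%) and 13 and 15 in the PrL (23.9% and 23.2%), with medians of -0.01 and 0. The median change of the members was 0.11 in the CeA against 0.01 for all genes, with 73 of 90 members above 0, and it was 0.01 in the NAcc and 0.03 in the PrL. In the CeA, 9 of 17 complex V members were higher and 0 lower (median 0.16, 16 of 17 above 0), 14 of 32 accessory subunits were higher and 1 lower, 3 of 8 assembly factors, 3 of 8 complex III members, 2 of 4 complex II members and 2 of 7 core subunits were higher and 0 lower, and complex IV gave 2 higher and 2 lower of 14. The count of higher members in the CeA rested in part on single libraries. It was 21 without PWK mouse 32 (19.2% of all genes) and 20 without PWK mouse 48 (17.3%), with a median change of 0.07 in each. Without PWK mouse 8, 16, 24 or 40 it was 44, 43, 34 and 28 (18.3%, 19.5%, 17.7% and 19.9%). Without the libraries that stood apart it was 19 (16.9% of all genes), when the median was 0.08.

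The members with the largest rises in PWK were complex I genes. Ndufs6, a zinc-binding accessory subunit, was at 5.75, 5.97 and 6.29 log2 CPM in the CeA of PWK, 5.64, 5.98 and 6.11 in CAST and 5.15 to 5.81 in the other strains. PWK and CAST overlapped, and most of their mice were above those of the rest. Against Low_Average, Ndufs6 rose in PWK by 0.49 ± 0.0686, 0.28 ± 0.0536 and 0.38 ± 0.0572 in the CeA, NAcc and PrL (limma-voom adjusted p 2.5e-07, 6.94e-05 and 7.05e-07). Ndufa5 rose by 0.40 ± 0.073, 0.19 ± 0.0434 and 0.43 ± 0.049 (2.12e-05, 0.000726 and 1.06e-09). Ndufaf2, an assembly factor that binds a late intermediate of complex I, rose by 0.40, 0.31 and 0.28 (1.48e-05, 0.0101 and 0.000515). In the CeA, Ndufaf2 was at 3.54, 3.75 and 4.07 in PWK and, with much the same values, at 3.39, 3.75 and 4.22 in B6, against 3.06, 3.32 and 3.56 in AJ and 3.20, 3.35 and 3.51 in CAST.

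Members higher in PWK in all 3 regions numbered 10 (11.1% of all genes): Ndufs6, Ndufa5, Ndufaf2, Ndufa6 (0.34, 0.18 and 0.22), Ndufv3 (0.27, 0.17 and 0.24), Cox7a2 (0.27, 0.16 and 0.20), Sdha (0.11, 0.19 and 0.13), Atp5a1 (0.18, 0.15 and 0.17), Ndufaf1 (0.23, 0.14 and 0.21) and Ndufaf7 (0.17, 0.16 and 0.14). Without the libraries that stood apart 8 were higher in all 3 (9.98%), the same without Ndufv3 and Cox7a2. Both members lower in all 3 regions (11.2% of all genes) had copies. Without those libraries Cox6a2 joined them (9.79%). Ndufs5 fell by 0.86, 0.99 and 1.01 on the log2 scale, and on summed counts it turned to 0.28 (adjusted p = 0.000394), 0.15 (0.0181) and 0.08 (0.358). Cox7a2l changed by -0.49, -0.53 and -0.41, and on summed counts by -0.40 (4.14e-09), -0.45 (1.52e-14) and -0.31 (1.49e-09). Ndufa12, at 0.02, -0.05 and -0.05 before, was lower in PWK on summed counts by -0.25 (0.000403), -0.30 (0.000593) and -0.30 (2.4e-07). Ndufa4l2 was lower in PWK in the NAcc (-0.59, 0.00123) and PrL (-0.36, 0.0176), and Cox6a2 in the CeA (-0.53, 0.00712) and NAcc (-0.72, 0.00273), with -0.40 (0.133) in the PrL.

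**Figure D3:**
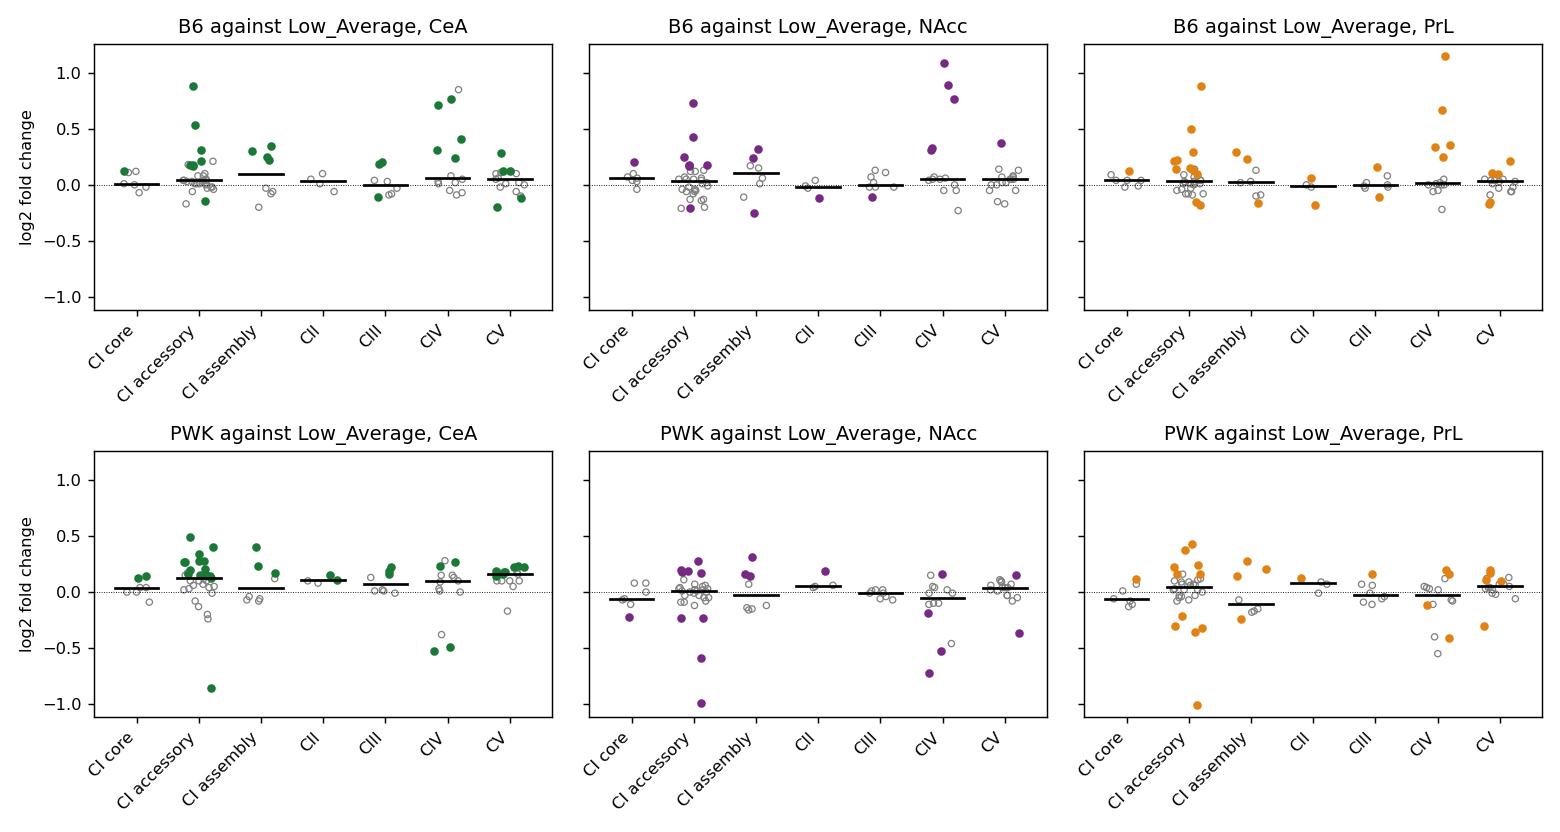
Log2 fold change of each of the 90 members against Low_Average by class (CI to CV are complexes I to V), for B6 (upper panels) and PWK (lower panels) in each region (left to right). Filled points passed the threshold, open grey points did not, and the bar is the class median. In the CeA of PWK, 35 filled points lie above 0 and 3 below, and the points below are Ndufs5 (-0.86) and Cox7a2l (-0.49), which have copies, and Cox6a2 (-0.53), which has none.

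Whether the PWK change differed between regions was tested in 1 fit over the libraries of all 3 regions. The difference CeA minus NAcc of the change in PWK was above 0 for 84 of 90 members, with a median of 0.11 against 0.01 for all genes, but 1 member passed the threshold (1.12% of all genes were called higher). For PrL minus CeA the median was -0.10 against -0.01. The corresponding medians of B6 were 0.02 for CeA minus NAcc and -0.02 for PrL minus CeA, the same as for all genes, with 1 member passing in each (7.79% and 4.65% of all genes called higher, 7.45% and 5.82% lower). In the CeA of PWK, 4 of 6 astrocyte markers were up (median 0.35) and 3 of 5 endothelial markers (median 0.25), while 0 of 5 oligodendrocyte markers passed (median 0.40). In the NAcc of PWK the same 4 of 6 count held for astrocyte markers (median 0.26). Their part in the members' change was not tested.

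Between regions, averaged over the 8 strains, 27 members were higher and 31 lower in the PrL than in the NAcc (38.4% and 44.1% of all genes), 31 higher and 14 lower in the PrL than in the CeA (35.1% and 38.8%), and 12 higher and 29 lower in the CeA than in the NAcc (33.2% and 35.9%). The medians were -0.01, 0.03 and -0.02, against -0.03, -0.01 and -0.01 for all genes. Without the libraries that stood apart the counts were 28 and 31, 28 and 11, and 13 and 28. The shares of all genes were not computed in that fit. Classes were not tested against each other. In the PrL against the NAcc (38.4% of all genes higher, 44.1% lower), accessory subunits of complex I were lower for 15 of 32 and higher for 6 (median -0.06). Complex III was higher for 5 of 8 and lower for 2 (median 0.11), and complex IV higher for 7 of 14 and lower for 4 (median 0.06). In the PrL against the CeA (35.1% and 38.8%), 7 accessory subunits were higher and 7 lower (median -0.03). Complex III there gave 5 higher and 1 lower, and complex IV 8 higher and 2 lower. Core subunits of complex I gave 4 of 7 higher and 0 lower in the PrL than in the CeA, and 5 of 7 lower and 0 higher in the CeA than in the NAcc.

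Within complex IV, the ubiquitous forms Cox8a, Cox4i1, Cox6a1 and Cox6b1 were higher in the PrL than in both other regions, and the tissue forms Cox6b2 and Cox6a2 were lower. Cox8a was higher in the PrL than in the NAcc by 0.38 ± 0.0401 (SE, limma-voom adjusted p = 1.59e-15) and than in the CeA by 0.27 ± 0.04 (2.17e-09). Cox4i1 rose by 0.13 and 0.17 in the same contrasts, Cox7a2 by 0.23 and 0.14, Cox7b by 0.20 and 0.12, Cox6a1 by 0.11 and 0.12 and Cox6b1 by 0.13 and 0.09. In contrast, Cox6b2 was lower in the PrL by -0.62 ± 0.146 (8.59e-05) and -0.46 ± 0.147 (0.00335), and Cox6a2 by -0.31 ± 0.0827 (0.000497) and -0.51 ± 0.0807 (1.37e-08). Cox4i2 was lower in the PrL than in the NAcc (-0.21, 0.0277), higher than in the CeA (0.27, 0.00917), and lower in the CeA than in the NAcc by -0.48 ± 0.0923 (1.9e-06). Ndufa4 rose by 0.15 and 0.11 in the PrL, whereas Ndufa4l2 was at -0.06 and 0.08 and did not pass.

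In complex III, the core proteins Uqcrc1 (0.11 and 0.09) and Uqcrc2 (0.13 and 0.06) and the Rieske iron-sulphur protein Uqcrfs1 (0.12 in both) were higher in the PrL than in the NAcc and CeA, and Uqcrb, a small subunit near the quinone site, was lower (-0.26 ± 0.0249, adjusted p = 1.2e-17, and -0.10 ± 0.0247, 0.000214). Ndufv1 was higher in the PrL by 0.16 and 0.17, and Ndufs1, the largest iron-sulphur subunit of complex I, was lower than in the NAcc by -0.11 (9.23e-08). Of the c subunit genes, Atp5g2 was lower in the PrL (-0.12, 4.79e-07) and in the CeA (-0.13, 4.22e-08) than in the NAcc. All 6 neuron markers tested were higher in the PrL than in the NAcc (median 0.59) and all 5 oligodendrocyte markers lower (median -1.77). The same 5 were lower in the PrL than in the CeA (median -0.93) and in the CeA than in the NAcc (median -0.81). The part of these cell types in the members' region differences was not tested.

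**Figure D4:**
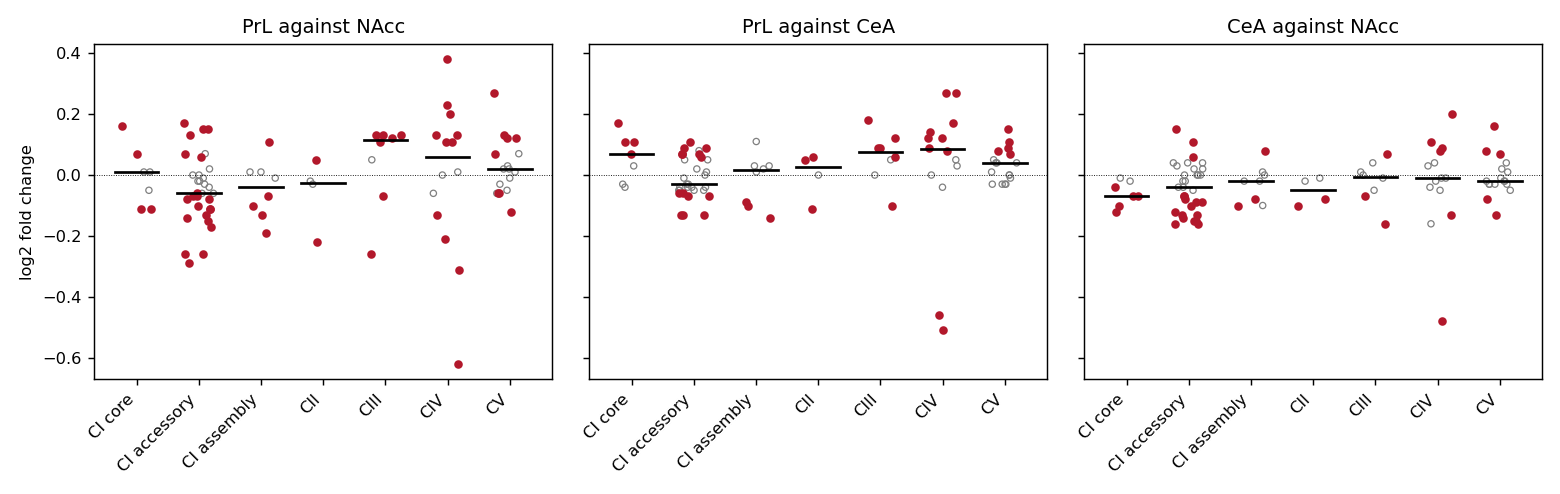
Log2 difference between regions of each of the 90 members, averaged over the 8 strains, by class (CI to CV as above), for PrL minus NAcc, PrL minus CeA and CeA minus NAcc. Filled points passed the threshold, open grey points did not, and the bar is the class median. Points spread on both sides of 0, from -0.62 (Cox6b2) to 0.38 (Cox8a) in PrL minus NAcc.

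Strain differences depended on region in few members. By the F test of the strain by region interaction, 3 of 90 members passed, against 34.5% of all genes: Ndufb2, an accessory subunit of the membrane arm (limma-voom adjusted p = 0.0137), Cox6a2 (0.0218) and Sdhc, a membrane anchor of complex II (0.0455). With the mouse as a replicate block, since all regions came from the same mice, 5 passed, by DESeq2 7, and with the omitted NAcc library added back 1. Sdhc did not pass under 6 of 11 alternatives (0.0542 to 0.113), Ndufb2 with that library (0.0709) and Cox6a2 by edgeR's quasi-likelihood test (0.076). In the PrL, Ndufb2 was at 3.82, 3.99 and 4.40 log2 CPM in B6 and at 3.32, 3.43 and 3.61 in PWK, and these did not overlap. In the NAcc the 5 B6 mice were at 3.45, 3.70, 4.13, 3.71 and 4.05, inside the range of the other strains, and WSB was at 3.84, 4.23 and 4.51. Against Low_Average, Ndufb2 was higher in B6 in the CeA (0.31, 5.82e-05) and PrL (0.29, 1e-04), and was at -0.21 ± 0.129 (0.204) in the NAcc, where 3 of the 5 B6 libraries stood apart in pallial markers. The change of B6 differed between the CeA and NAcc by 0.52 ± 0.124 (0.00421) and between the PrL and NAcc by 0.50 ± 0.125 (0.00656).

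For Cox6a2, the change of B6 was larger in the PrL than in the CeA by 0.73 ± 0.203 (limma-voom adjusted p = 0.0138). In the CeA the log2 CPM was 1.45, 1.91 and 2.66 in B6 and 1.49, 1.98 and 2.25 in AJ, which overlapped, whereas in the PrL all B6 mice (1.73 and above) were over all AJ mice (1.52 and below). Sdhc was lower in B6 than in Low_Average in the NAcc (-0.12, 0.0149) and PrL (-0.18, 0.000594), with 0.01 (0.856) in the CeA. In the PrL, Sdhc was at 6.15, 6.27 and 6.47 in B6 and 6.18, 6.26 and 6.41 in CAST, and between 6.31 and 6.77 in the other strains, so that these groups overlapped.

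**Figure D5:**
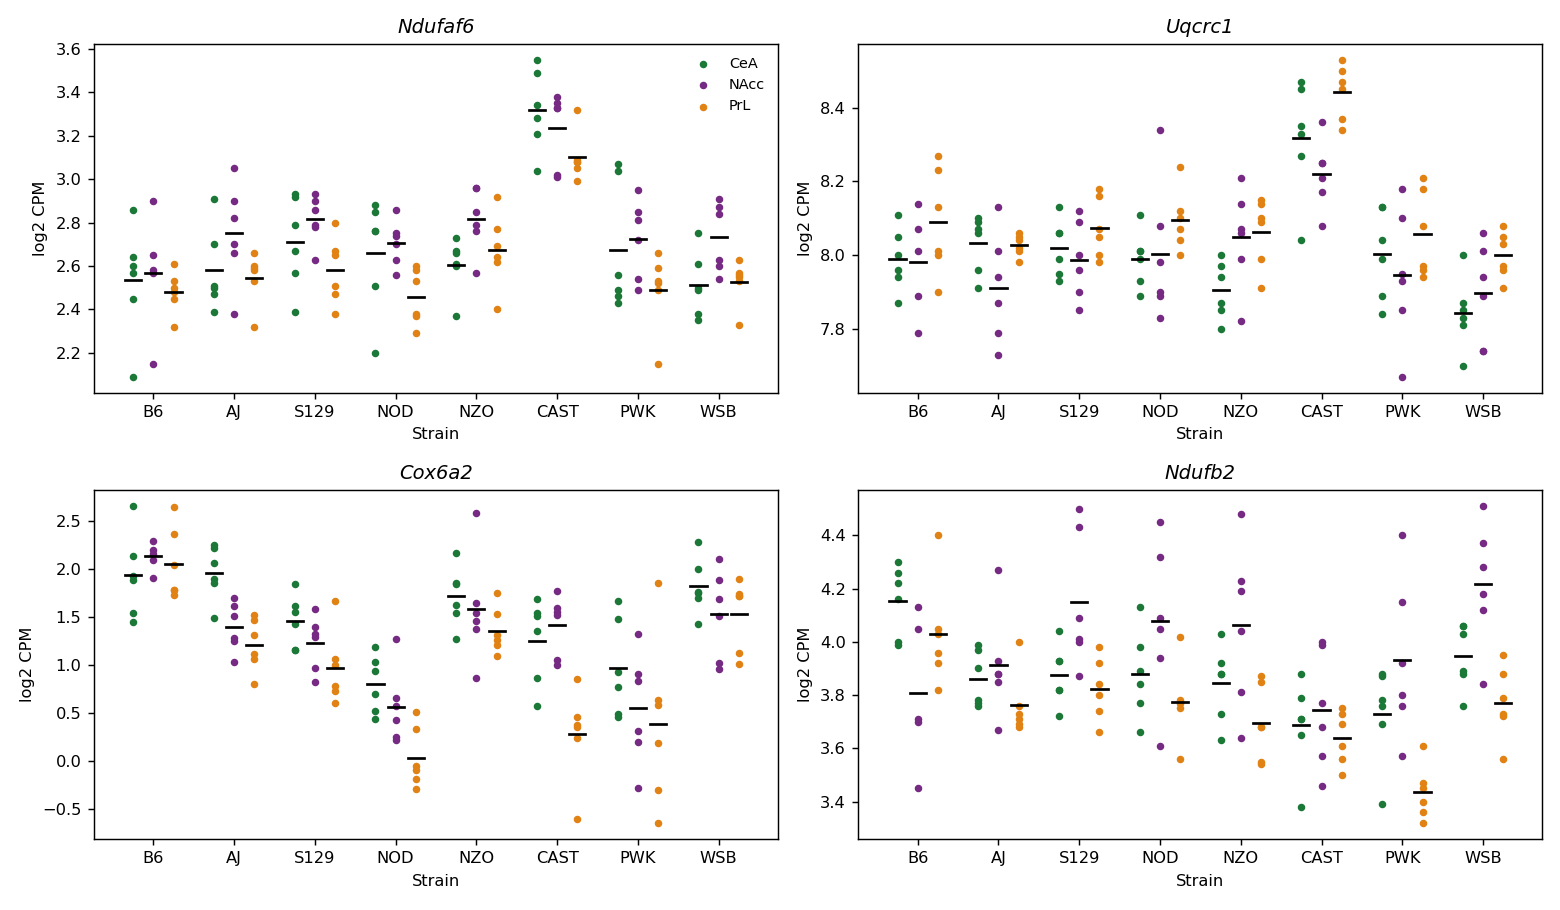
Log2 CPM in each library of Ndufaf6, Uqcrc1, Cox6a2 and Ndufb2 by strain (x axis), coloured by region (CeA green, NAcc purple, PrL orange), with the mean of each group as a bar. CAST stands above the other strains for Ndufaf6 and Uqcrc1, from 2.99 and 8.34 upwards in the PrL, and Cox6a2 is lowest in NOD, CAST and PWK in the PrL.

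Between sexes, 0 of 90 members passed in any region by limma-voom (0.135%, 0.0812% and 0.0947% of all genes passed in the CeA, NAcc and PrL). At an unadjusted p under 0.05 there were 0 members in the CeA and NAcc and 6 in the PrL, 0, 0 and 7 by edgeR's quasi-likelihood test, and 0, 0 and 8 by DESeq2. The female minus male difference had a median of 0.00 in the CeA, 0.03 in the NAcc, where 82 of 90 members were above 0, and -0.04 in the PrL, where 9 of 90 were above 0.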

How the data were processed

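Per the labels and the study's methods, stranded polyA libraries were sequenced as 100-base reads in 3 trays, trays 2 and 3 in 2 runs, and the authors aligned reads to GRCm39 (Ensembl 105) with STAR 2.7.3a and deposited raw counts per gene and run. The authors also deposited log2 CPM values, made with edgeR 3.38.1 and limma 3.52.2 after TMM scaling, for genes with a mean CPM of at least 1, no count over 50000 and a place on a chromosome. As in the log2 table, run 1 of tray 2 and run 2 of tray 3 were used, and from these counts the deposited log2 values were obtained again to within 5e-06. No pair of libraries held identical counts, and no column was left without a sample.

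Counts were analysed in R 4.3.3 with limma 3.58.1 (voom, prior count 0.5) and TMM factors from edgeR 4.0.16 on the genes of the log2 table. Each region was fitted with strain, sex and tray. The 28 strain pairs were adjusted together, as were B6 and PWK against Low_Average within a region, by the Benjamini-Hochberg method over all genes with a threshold of 0.05. Region contrasts and the strain by region F test came from 1 fit of all libraries. The CeA fit was also run on simulated counts with changes set in B6 and no effect of sex or tray. That run covered the contrasts against Low_Average only, and no result here rests on it. The mice are separate animals. Regions of the same mouse, known from the labels, deviated together from their group means (median correlation over genes 0.0581 for PrL and NAcc, 0.112 for PrL and CeA and 0.0743 for CeA and NAcc, against -0.00826, -0.00645 and -0.00338 for different mice), so the mouse was used as a replicate block in an alternative fit. The counts were also fitted with DESeq2 1.42.0, by quasi-likelihood in edgeR, with RLE factors, with no filter on low counts or a mean CPM of 5, without tray, with the library that had been left out, on summed runs, with each contrast adjusted on its own and, for the B6 mice in the NAcc, leaving out each mouse. Chosen after seeing the data were the sums with copies, the fits without libraries that stood apart, leaving out each PWK mouse in the CeA, and the test of the difference between regions in the B6 and PWK changes. Copies were found with blastn 2.17.0 in GENCODE M21 transcripts on GRCm38 and joined by gene ID only.

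The members, gene lists and rule for named genes were chosen with earlier results of these data known. Named were members that were unique DEGs of 1 strain in all 3 regions, those with the largest strain range per class and region, the largest rise and fall per contrast, the smallest interaction p, and isoform pairs.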

Additional observations from a re-analysis of the deposited data

Results flagged for a closer look

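Among 136 groups of mice whose values stand in the report or share a gene and region with one that does, 9 held a mouse far from the others, its gap to the nearest mouse taking a large part of the group's range. Chance alone gives about 1 in 20 groups of this size. The lowest CAST mouse for Cox7a2l in the CeA was at 4.81 log2 CPM with the next at 5.17 (0.673 of the range), and the lowest AJ mouse for Ndufs5 in the CeA at 5.18 with the next at 5.46 (0.656). For Ndufaf6 in the PrL, 4 strains had such a mouse: the lowest of AJ at 2.32 beside 2.53 (0.641), of PWK at 2.15 beside 2.49 (0.663) and of WSB at 2.33 beside 2.53 (0.666), and the highest of CAST at 3.32 beside 3.09 (0.701). The highest AJ mouse for Ndufb2 in the PrL was at 4.00 beside 3.76 (0.726), the lowest NOD mouse for Ndufa5 in the PrL at 5.38 beside 5.71 (0.648), and the lowest PWK mouse for Atp5h in the CeA at 7.26 beside 7.50 (0.633).

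Strain differences differed between regions by the F test of the interaction (limma-voom, Benjamini-Hochberg) for Ndufb2 (adjusted p = 0.0137), Cox6a2 (0.0218) and Sdhc (0.0455). The values behind each are given in the report.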

How the results depend on the processing

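Counts of members were recomputed under each alternative, and 352 lay close to the value in the report (within 1.5 times it) while 22 did not. Members DE in 1 or more strain pairs ranged over 73 to 86 (CeA), 49 to 72 (NAcc) and 73 to 84 (PrL). Without the libraries that stood apart, unique DEGs of the NAcc numbered 6, members higher in B6 than in Low_Average 41 (CeA), 6 (NAcc) and 12 (PrL), members lower in B6 1 in the CeA, and members higher in PWK 19 in the CeA and lower in PWK 15 in the PrL. Without the tray term, members lower in B6 numbered 2 in the CeA and 4 in the PrL, and members higher in PWK 7 in the NAcc. Without a filter on low counts, when 40771 genes were tested, 12 members were higher in B6 in the CeA. On summed counts the unique DEGs of the CeA numbered 7. Members that passed the interaction test numbered 7 by DESeq2 and 1 with the omitted NAcc library added back. The cause was not tested for these. For unique DEGs, strain pairs, region contrasts and the interaction, the share of all genes was not computed under the alternatives.

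Leaving out each PWK mouse of the CeA gave 20 to 44 members higher (17.3% to 19.9% of all genes) and 2 to 5 lower (16.6% to 18.8%) in PWK. Leaving out each B6 mouse of the NAcc gave 1 to 6 members lower (10.3% to 15.4% of all genes) and 12 to 17 higher (12.3% to 17.8%) in B6, and 7 to 9 unique DEGs. The replicate block, which pairs the regions of a mouse, gave 5 members with an interaction in place of 3, moved no count of members between regions by more than 1, and lost no call of a named gene. Values of named genes were recomputed likewise, and so were the counts of unique DEGs of each strain. Together 1009 stayed the same, a value by direction and side of the threshold and a count by lying within 1.5 times. A further 34 counts of unique DEGs moved beyond that. Among values of named genes, 32 no longer passed and 10 reversed, all 10 on summed counts. They were Ndufa12 in B6 against the other strains (0, -0.08 and -0.02 in the CeA, NAcc and PrL) and Atp5g1 in NOD in the NAcc (0.04). The others were Atp5md (AJ against CAST -0.03 in the CeA, B6 against CAST 0 in the NAcc and -0.28 in the PrL) and Ndufs5 in PWK against Low_Average (0.28, 0.15 and 0.08). Adding the copies' counts is the whole of that alternative. The interaction of Ndufb2 did not pass once the omitted NAcc library was added back (0.0709), that of Cox6a2 by edgeR's quasi-likelihood test (0.076), and that of Sdhc under 6 alternatives (0.0542 to 0.113). Without the tray term, Ndufa12 in B6 in the NAcc (0.0854), Atp5g1 in NOD in the NAcc (0.0712) and PrL (0.091) and Ndufb8 in B6 in the PrL (0.0754) did not pass. Cox4i2, Cox6a2 and Cox6b2 had no value with a mean CPM of at least 5. Depth limits the low members most, such as Cox6a2 with 15 to 119 reads a library in the PrL of NOD and B6.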

Other observations

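Genes of the same pathway that the name rule leaves out were tested in the same fits. Of these, copies were searched for the mitochondrially encoded genes only. The part of copies in the strain differences of the others was not tested. Of 43 assembly factors of complexes I to V without Ndufaf names, 41 were tested and 38, 40 and 39 were DE in 1 or more strain pairs in the CeA, NAcc and PrL, against 91.1%, 88.4% and 92.6% of all genes, with a median range over the strain means of 0.48, 0.49 and 0.47 log2 units. Against Low_Average, where 22.3%, 17.2% and 18% of all genes were higher and 18.7%, 14.9% and 19.3% lower in B6, and 20.1%, 20% and 23.9% higher and 19.1%, 18.8% and 23.2% lower in PWK, B6 had 7, 8 and 4 of them higher and 6, 3 and 10 lower, and PWK 11, 12 and 11 higher and 12, 14 and 18 lower. In the PrL 18 were higher and 14 lower than in the NAcc (38.4% and 44.1% of all genes), and 18 higher and 7 lower than in the CeA (35.1% and 38.8%). In the CeA 11 were higher and 15 lower than in the NAcc (33.2% and 35.9%), and 2 passed the interaction test (34.5%). Both members of the list that differed by more than 1 log2 unit in PWK, named after their values were seen, were Tmem126b, which takes part in the assembly of complex I (-1.64, -1.55 and -1.49 in the CeA, NAcc and PrL), and Lyrm7, a chaperone of the Rieske protein of complex III (1.52, 1.47 and 1.45). The limma-voom adjusted p was 1.4e-25, 5.28e-24 and 1.47e-22 for Tmem126b and 3.92e-23, 4.86e-20 and 3.11e-29 for Lyrm7.

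Of 13 enzymes of the tricarboxylic acid cycle, which supplies NADH and succinate, 13, 8 and 11 were DE in 1 or more pairs (91.1%, 88.4% and 92.6% of all genes), with median ranges of 0.21, 0.17 and 0.22. B6 had 4, 0 and 2 higher (22.3%, 17.2% and 18% of all genes) and 2, 0 and 0 lower (18.7%, 14.9% and 19.3%) than Low_Average. PWK had 4, 2 and 4 higher (20.1%, 20% and 23.9%) and 2, 1 and 3 lower (19.1%, 18.8% and 23.2%). In the PrL 9 were higher and 4 lower than in the NAcc (38.4% and 44.1% of all genes, median 0.10), among them citrate synthase Cs (0.13, adjusted p = 1.53e-10), and 3 passed the interaction test (34.5% of all genes). Cycs, the mobile electron carrier cytochrome c, was up-expressed in PWK by 0.43, 0.36 and 0.32 (2.72e-09, 3.89e-05 and 2.21e-07), and Cyc1, cytochrome c1 of complex III, by 0.13 in the CeA (0.0149) and 0.08 in the PrL (0.047), with 0.13 (0.161) in the NAcc. B6 differed for neither, and copies of Cycs and Cyc1 were not searched for. Of 20 genes of mitochondrial transcription and biogenesis, 16, 13 and 17 were DE in 1 or more pairs, against those same shares of all genes, and 13 were lower and 3 higher in the PrL than in the NAcc (44.1% and 38.4% of all genes, median -0.20), with Gabpa at -0.48 (7.31e-28), Nrf1 at -0.25 (3.33e-16) and Ppargc1a at 0.19 (0.00247).

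The mitochondrially encoded subunits, 13 genes that the deposited log2 table left out, took 1.66% to 6.63% of a library's counts. All 13 were DE in 1 or more pairs in each region (91.1%, 88.4% and 92.6% of all genes in the CeA, NAcc and PrL), with median ranges of 1.51, 1.62 and 1.49. In the PrL 11 of 13 were lower and 0 higher than in the NAcc (44.1% and 38.4% of all genes), and in the CeA likewise 11 and 0 (35.9% and 33.2%). Several had nuclear copies near identity in the count table. In the CeA, mt-Atp6 was at 13.7 ± 6.95 CPM (SD, n = 6) in B6 with 59.5 CPM in its copy Gm10925, at 1380 ± 224 with 1310 in CAST and at 2200 ± 1010 with 1660 in PWK. The gene mt-Co1 was at 20900 ± 4040 CPM in B6 with 29.5 in its copy Gm13340, at 8100 ± 1710 with 9540 in CAST and at 7700 ± 2960 with 8340 in PWK. In these strains mt-Atp6 was high where its copy was high, and mt-Co1 was high where its copy was low. The part of the copies in the strain differences was not tested.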
